A study of Mus musculus with 12 samples.

Results

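Cytochrome P450 enzymes are haem-containing monooxygenases, and the genes described here are the 5 P450 genes Cyp4f15, Cyp4f14, Cyp2d22, Cyp2j9 and Cyp7b1 in astrocytes of the mouse striatum. They are 5 of 99 gene symbols of the P450 pattern (Cyp, a family number, a subfamily letter and a member number, with or without a last letter) among 31053 genes in the count table. The 5 genes were chosen by their measured levels in these same data, high in mature astrocytes, so their levels by age and by cell class are given as a description, without a test. Tests are given for other P450 genes and for genes of P450-related pathways, across all genes.

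P450 enzymes of the endoplasmic reticulum take electrons from P450 oxidoreductase, encoded by Por, and insert 1 oxygen atom into fatty acids, sterols, steroids or foreign compounds. The Cyp4f enzymes hydroxylate the tail end of fatty acids and of leukotrienes, and the Cyp2j enzymes oxidise arachidonic acid. Cyp2d22 belongs to the Cyp2d family of drug-metabolising enzymes, and Cyp7b1 hydroxylates oxysterols and neurosteroids. In the brain, arachidonic acid products and oxysterols act as lipid signals, and astrocytes are the main source of brain apolipoprotein E and much of its cholesterol.

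The cells came from the striatum of wild type mice of mixed strain and were enriched with magnetic beads against ACSA2, an astrocyte surface antigen. Single cells were captured in droplets, and the 3′ ends of their transcripts were sequenced and counted by unique molecular identifiers (UMIs), 1 for each captured molecule; levels are therefore not set against each other between genes. The labels list 12 sequencing runs of 4 libraries, 2 from postnatal mice and 2 from mice aged 3 months (3m); per the study's methods a preparation pools the tissue of several animals, given there as C57BL/6Jax males. The titles and age tags of the postnatal libraries disagree (day 7 against day 3 for replicate 1, day 3 against day 7 for replicate 2), so both were kept as 1 postnatal group, and the spread within it can include age.

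Of 4245 barcodes, 3163 passed the filter (at least 500 genes, and mitochondrial UMIs of no more than 10%). The kept cells per library were 555 and 724 (postnatal replicates 1 and 2) and 1120 and 764 (3m replicates 1 and 2), with median UMI counts from 7737.5 to 11639.5. Each cell was assigned to the class whose 10, 8 or 5 marker genes scored highest, provided that the score led the next class by 0.25, and cells without such a lead were left ungated. This gate is a range of a score and not a cell type by itself. Of the cells that scored highest for astroglia, gated or not, 11, 26, 3 and 10 lay within 0.1 of the margin in the 4 libraries. The astroglia class held 387, 563, 316 and 304 cells, and all 10 of its markers were detected in each library. Its cells were therefore 69.7% and 77.8% of the postnatal and 28.2% and 39.8% of the 3m cells, and the 3m libraries also held 580 and 305 oligodendrocyte-gated cells.

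Several features of the libraries moved with age. Postnatal replicate 2 and 3m replicate 2 shared 95 cell barcodes, against at most 2 for any other pair, and 45 of the 764 kept cells of 3m replicate 2 were the smaller copy of such a barcode. The postnatal replicates differed more from each other than the 3m replicates did, with a chi-square per degree of freedom of 26.8 against 3.01 over the genes of the astroglia sums. In astroglia-gated cells, the 10 oligodendrocyte markers summed to 17.4 and 17.5 CPM (UMIs of a gene per 1000000 UMIs) in the postnatal and 778 and 351 CPM in the 3m libraries, with 7, 9, 10 and 10 of the 10 markers detected. The 16 dissociation and stress genes summed to 6221 and 4927 CPM against 695 and 324 CPM, and the 10 cycling genes to 1011 and 2104 CPM against 172 and 476 CPM. The median mitochondrial share was 2.62% and 2.01% against 4.63% and 5.81%. The part of stress, cycling and mitochondrial shares in the results below was not tested.

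In astroglia-gated cells all 5 P450 genes were higher in both 3m libraries than in both postnatal libraries. Over all 11825 genes tested between the ages, 27.1% had both 3m values above both postnatal values. A call in the test across genes needed an adjusted p of at most 0.05 and a 2-fold difference, and 26.2% of the genes were called, 14.5% higher and 11.7% lower at 3m. Levels below are the CPM of all astroglia-gated cells of a library summed, the first pair being postnatal replicates 1 and 2 and the second pair 3m replicates 1 and 2. Fewer RNA molecules per cell and a smaller number of cells that carry them cannot be told apart in such a sum. The share of cells with a UMI is given further below. At counts this low it follows the level and does not separate them either. The log2 fold changes are those of the edgeR fit.

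**Figure D1:**
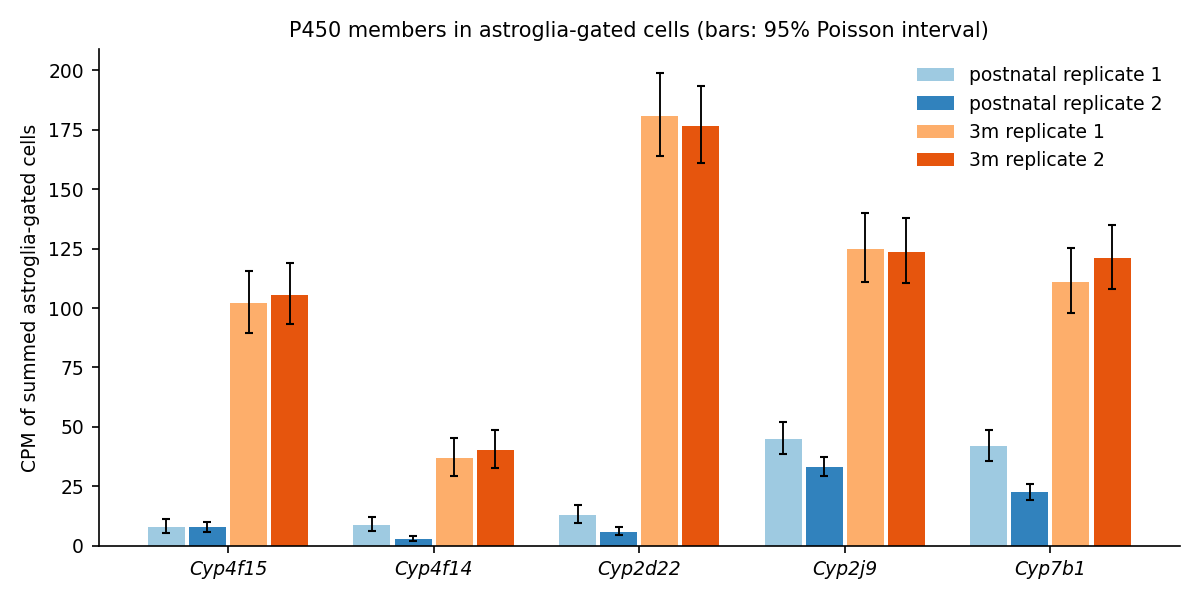
Level of each P450 gene (CPM, y axis) in summed astroglia-gated cells of the 4 libraries; error bars are 95% Poisson intervals, which cover counting error only. For every gene the 2 orange bars (3m) stand above the 2 blue bars (postnatal), from 124 and 125 against 33.0 and 45 CPM for Cyp2j9 to 177 and 181 against 5.96 and 13 CPM for Cyp2d22.

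The fatty acid hydroxylase gene Cyp4f15 had 7.83 and 7.71 CPM in the postnatal libraries and 102 and 106 CPM in the 3m libraries. These rest on 32, 66, 239 and 276 UMIs. Replicates of an age differed by far less than the ages, and the mean rose 13.4-fold, from 7.77 ± 0.0854 to 104 ± 2.55 CPM (SD, n = 2 each). The log2 fold change was 4.02 (SE 0.170), and it stayed between 3.96 and 4.03 when a postnatal library was left out.

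Its neighbour Cyp4f14 was lower in count, with 35, 24, 86 and 105 UMIs. The levels were 8.56 and 2.80 CPM in the postnatal and 36.7 and 40.2 CPM in the 3m libraries. The ages did not overlap, but the postnatal replicates differed 3.05-fold. The log2 fold change of 3.17 (SE 0.477) accordingly became 4.05 without postnatal replicate 1 and 2.40 without postnatal replicate 2.

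Cyp2d22 had 13 and 5.96 CPM in the postnatal libraries and 181 and 177 CPM at 3m. With 53 and 51 against 424 and 462 UMIs, this was the largest of the 5 differences between the ages, 18.9-fold in the means (9.46 ± 4.96 against 179 ± 2.94 CPM, SD, n = 2 each). The log2 fold change was 4.60 (SE 0.357), or 5.19 and 4.02 without postnatal replicate 1 or 2.

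The arachidonic acid-oxidising Cyp2j9 was already detected in the postnatal libraries, at 45 and 33.0 CPM (184 and 283 UMIs). At 3m its level was 125 and 124 CPM (293 and 323 UMIs). The mean rose 3.18-fold, from 39.0 ± 8.46 to 124 ± 1.02 CPM (SD, n = 2 each), with a log2 fold change of 1.96 (SE 0.203). This difference was the smallest of the 5.

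Cyp7b1, the oxysterol hydroxylase gene, had 41.8 and 22.4 CPM in the postnatal and 111 and 121 CPM in the 3m libraries (171, 192, 260 and 316 UMIs). The means were 32.1 ± 13.7 and 116 ± 7.04 CPM (SD, n = 2 each), a 3.61-fold difference. Its log2 fold change of 2.15 (SE 0.309) became 2.66 or 1.71 without postnatal replicate 1 or 2.

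The difference between the ages was also computed in other sets of cells and with another scaling. In astroglia-gated cells with at most 1 UMI over the 10 oligodendrocyte markers, the log2 fold changes were 3.9 for Cyp4f15, 3.29 for Cyp4f14, 4.59 for Cyp2d22, 2.01 for Cyp2j9 and 2.40 for Cyp7b1. Without the shared-barcode copies all 5 values were the same to 2 decimals. Without TMM factors the median over all genes tested moved from 0.0020 to -0.28, the share of higher genes among those called fell from 55.3% to 36.5%, and the 5 genes had values of 3.74, 2.89, 4.32, 1.68 and 1.88 in the same order. When all kept cells of a library were summed, with their different mix of classes, the values were 2.73, 1.99, 2.72, 0.85 and 0.95.

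Of the 10 gate markers of the astroglia class, 7 were higher in both 3m than in both postnatal libraries, Sox9 was lower, and Slc1a3 and Mlc1 overlapped between the ages. Aldoc, an enzyme of glycolysis, had 1269 and 792 CPM in postnatal and 4283 and 4403 CPM in 3m astroglia, and the neurotensin receptor gene Ntsr2 had 165 and 16.5 against 1521 and 1562 CPM. Fabp7, a fatty acid-binding protein of immature glia and not a gate marker, went the other way, with 11133 and 16514 against 372 and 420 CPM. The gate marker Sox9, a transcription factor of the astroglial lineage, had 891 and 787 against 636 and 625 CPM. None of the 5 P450 genes was a marker of the gate.

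Detection in single cells followed the summed levels. To compare cells of different depth, each astroglia-gated cell was thinned to 2000 UMIs, which left 320, 520, 284 and 261 cells; 67, 43, 32 and 43 shallower cells were left out. A UMI of Cyp4f15 was then found in 1.25% and 1.54% of postnatal and in 17.6% and 15.3% of 3m astroglia. For Cyp4f14 the shares were 1.56% and 0.577% against 8.10% and 7.66%. Cyp2d22 was found in 1.56% and 2.31% of postnatal and in 27.1% and 33.7% of 3m astroglia, the widest gap of the 5 genes.

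Cyp2j9 was found in 6.88% and 7.31% of postnatal and 23.6% and 18.4% of 3m astroglia, and Cyp7b1 in 9.06% and 5.19% against 24.6% and 22.2%. For each gene both 3m shares were above both postnatal shares, which the choice of the genes makes likely. In oligodendrocyte-gated cells of the same 3m libraries, thinned alike, the mean share was 0.610% for Cyp4f15, 0.518% for Cyp4f14, 1.74% for Cyp2d22, 1.56% for Cyp2j9 and 0.263% for Cyp7b1 (n = 2). The intervals of the postnatal astroglia shares of Cyp4f15, Cyp4f14 and Cyp2d22 overlapped those of the 3m oligodendrocytes, so at this depth postnatal detection of these 3 genes could not be set apart from a class in which they are low. In the full counts the intervals of Cyp4f15 were separate, 5.35 to 11 and 5.96 to 9.80 CPM in postnatal astroglia against 1.19 to 3.82 and 0.25 to 2.35 CPM in 3m oligodendrocytes. Without thinning, the 3m astroglia with a UMI were 44.9% and 48.0% for Cyp4f15, 22.8% and 26.6% for Cyp4f14, 60.1% and 62.8% for Cyp2d22, 52.2% and 54.3% for Cyp2j9 and 49.1% and 53.3% for Cyp7b1, at median depths of 5983 and 8359 UMIs. The 3m oligodendrocytes, with deeper medians of 9062 and 13137 UMIs, had unthinned shares of at most 10.5% for any of the 5 genes.

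**Figure D2:**
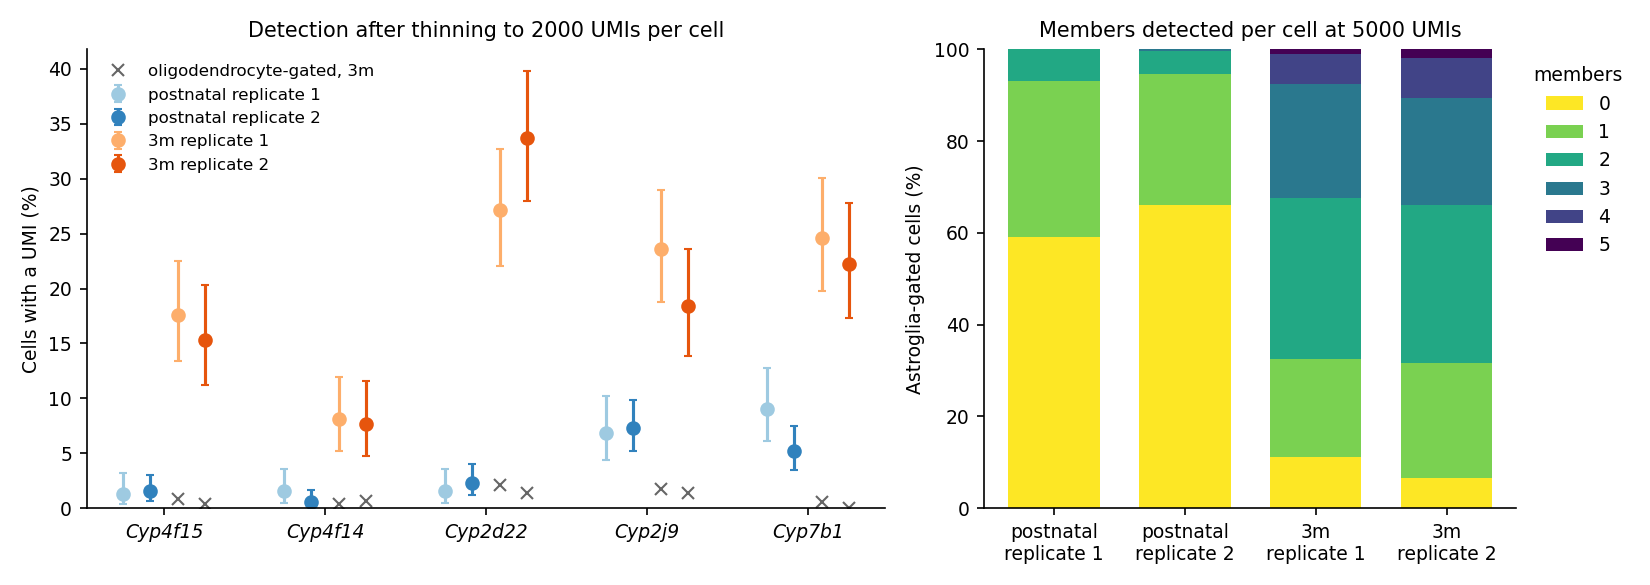
Left, share of astroglia-gated cells with a UMI of each gene after thinning to 2000 UMIs (y axis in percent), with 95% Clopper-Pearson intervals; crosses are 3m oligodendrocyte-gated cells. Right, share of astroglia-gated cells, thinned to 5000 UMIs, with 0 to 5 of the genes detected; 88.8% and 93.5% of 3m cells had at least 1, against 41.0% and 33.9% of postnatal cells.

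Single 3m astroglia often carried several of the 5 transcripts. At a depth of 5000 UMIs, 67.5% of 197 cells of 3m replicate 1 and 68.4% of 215 cells of 3m replicate 2 had at least 2 of the genes, and 2 and 4 cells had all 5. In the postnatal libraries 6.90% of 261 and 5.44% of 478 cells had at least 2. Pearson's r of the UMI counts at 5000 UMIs was taken over the 10 pairs of genes within a library. It ran from -0.0759 to 0.0469 and from -0.0281 to 0.0488 in the postnatal libraries. In the 3m libraries it ran from -0.0394 to 0.110 and from -0.0607 to 0.108. These cells share their library and depth, and sparse counts can hold r near 0 even where genes vary together. How far they do so here was not tested, so nothing is read from these values.

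Among postnatal astroglia, cells with at least 3 cycling-gene UMIs after thinning had lower levels of several of the genes. In postnatal replicate 2, the 78 cycling cells had 16.8 CPM of Cyp2j9 (95% Poisson interval 12.1 to 22.8) and the 442 other cells 39.7 CPM (34.8 to 45). Cyp7b1 had 14.8 CPM (10.4 to 20.5) in the cycling and 25.5 CPM (21.7 to 29.9) in the other cells. In postnatal replicate 1, with 34 cycling cells, Cyp2j9 had 29.9 CPM (18 to 46.7) against 47.9 CPM (40.8 to 55.9), and Cyp7b1 had 22.0 CPM (12 to 37.0) against 45.2 CPM (38.3 to 53.0). Cyp4f15 had 0 UMIs in the cycling cells of replicate 1 (0 to 5.80 CPM, against 6.51 to 13.4 CPM in the other cells) and 7 in those of replicate 2 (1.16 to 5.92 against 7.40 to 12.5 CPM). The intervals of Cyp7b1 and Cyp4f15 were separate in both libraries, those of Cyp2j9 and Cyp4f14 in replicate 2, and those of Cyp2d22 overlapped in both. These intervals cover counting error only.

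The 5 genes differed in which other classes held them. At 3m all were lower in oligodendrocyte-gated than in astroglia-gated cells: Cyp4f15 had 2.24 and 0.918 CPM there, Cyp4f14 2.24 and 1.38, Cyp2d22 13.1 and 9.41, Cyp2j9 11 and 10.1, and Cyp7b1 2.75 and 0.459 CPM. The ratio of the class means was 11.8 for Cyp2j9 and 15.9 for Cyp2d22. For Cyp4f15, Cyp4f14 and Cyp7b1 the oligodendrocyte levels rest on 2 to 16 UMIs in a library, too few to order the ratios. In the fit over the 4 classes with at least 20 cells in both 3m libraries, 24.1% of 11367 genes were called higher in astroglia than in oligodendrocytes and 16.6% lower.

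Cyp4f14, the member with the fewest UMIs, was seldom found in the smaller classes. Outside astroglia, ungated and oligodendrocyte-gated cells, it had 1 UMI in mural cells of 3m replicate 2, 1 UMI in microglia of postnatal replicate 2, and none in endothelial, ependymal or precursor cells of any library. Its 0 counts in 46 and 38 endothelial cells of the 3m libraries allow levels of up to 7.69 and 10.6 CPM. Cyp4f15 likewise had 0 UMIs in endothelial, microglial and oligodendrocyte precursor cells of every library. It was, however, found in ependymal-gated cells, the ciliated cells that line the ventricles, at 109 and 79.8 CPM in the 3m libraries, on 14 and 8 cells.

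Cyp2d22 was shared with the endothelium. Endothelial-gated cells had 66.6 and 70.4 CPM of Cyp2d22 at 3m, on 46 and 38 cells, and 18.6 and 14.9 CPM in the postnatal libraries, on 15 and 14 cells. Mural cells had 0 and 24.5 CPM at 3m, the latter on 6 UMIs. The order at 3m was astroglia, then endothelium, then oligodendrocytes, and in both libraries each step exceeded the difference between the replicates.

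Cyp2j9 was shared with oligodendrocyte precursors. In precursor-gated cells it had 34.3 CPM in postnatal replicate 1 (68 cells) and 114 CPM in 3m replicate 1 (45 cells), beside 45 and 125 CPM in astroglia of the same libraries. In the second replicates, 9 and 7 cells were precursor-gated, with 18.9 and 105 CPM on 2 and 5 UMIs. Oligodendrocytes, the later stage of that lineage, had 11 and 10.1 CPM. Endothelial, mural and microglial cells had at most 8.13 CPM, on no more than 3 UMIs.

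Cyp7b1 was found in mural cells, the pericytes and smooth muscle cells of vessels, and in precursors of 3m replicate 1. Mural cells had 5.26 and 4.80 CPM in the postnatal libraries and 31.5 and 61.2 CPM at 3m, on 1, 2, 6 and 15 UMIs. Precursors had 13.4 CPM in postnatal replicate 1 and 70.2 CPM in 3m replicate 1, on 9 and 21 UMIs. The 10 mural markers summed to 165, 164, 392 and 145 CPM in astroglia-gated cells and overlapped between the ages.

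**Figure D3:**
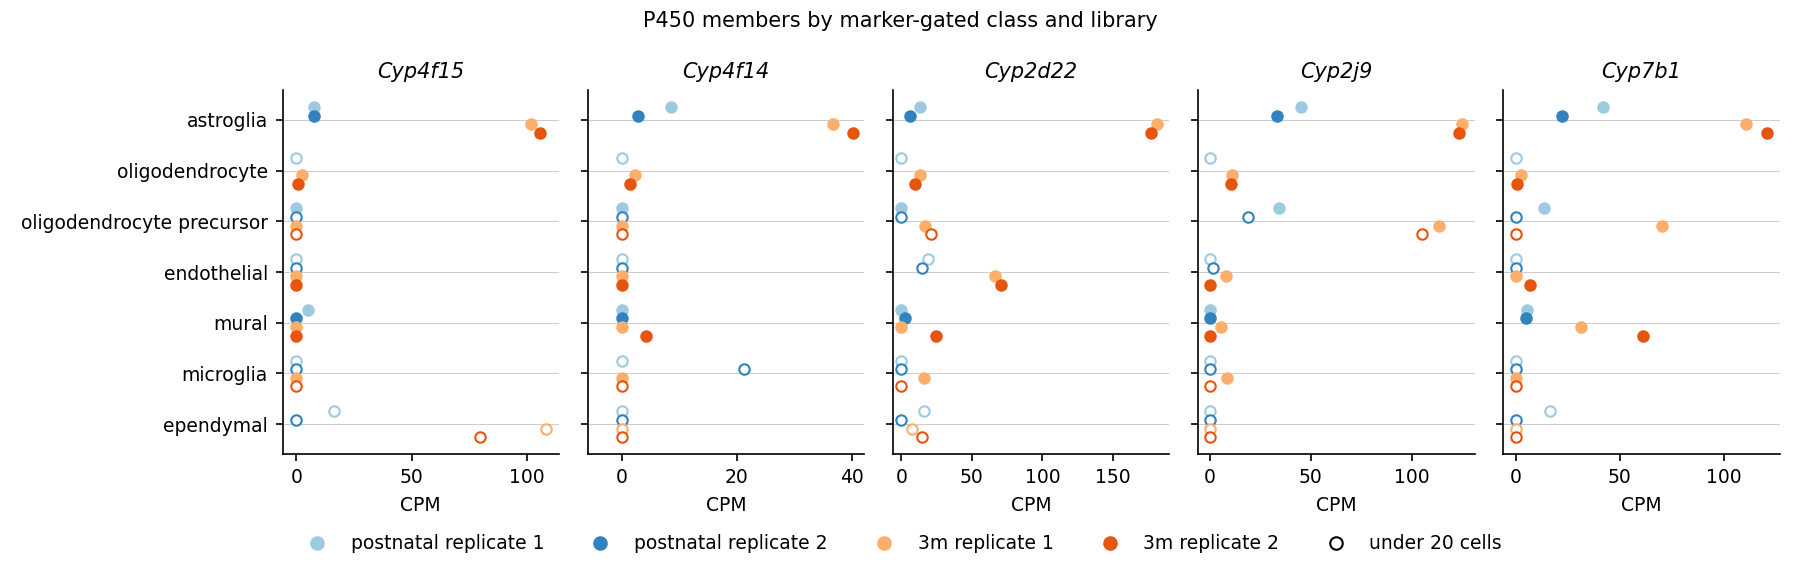
CPM (x axis) of each P450 gene by marker-gated class (y axis) and library; open circles are sums of fewer than 20 cells. The 3m astroglia points lie farthest right for 4 genes, while for Cyp4f15 an ependymal sum of 14 cells reaches 109 CPM; Cyp2d22 also appears in endothelium, Cyp2j9 in oligodendrocyte precursors and Cyp7b1 in mural cells.

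The genes most like each of the 5 were ranked by Pearson's r of log2(CPM + 1) over 15 sums of library and class with at least 20 cells, among 9927 genes with a mean of at least 10 CPM. The 15 sums share libraries and 4 of them are astroglia, so the r values are a description. Both Cyp4f15 and Cyp4f14 had Grin2c, an NMDA receptor subunit gene, in the first place (r = 0.953 and 0.947). Cyp4f15 was further followed by Gm9925, Ppp1r3g, Gdf10 and Aifm3 (0.942 to 0.908), and Cyp4f14 by Prss56, 2900052N01Rik, Hacd2 and Crym (0.941 to 0.923). Cyp2j9 was most like Gpr37l1, a glial G protein-coupled receptor gene (0.95), followed by Gpm6a, Fut9 and Timp4. Cyp2d22 was most like Dnajb9 (0.910), Mt1, Tpp1, Tuba4a and Arsa, and Cyp7b1 like Sod2 (0.907), Dgkb, Acadsb, Clcc1 and Shd. Among the 5 genes themselves, r was 0.890 for Cyp4f15 with Cyp4f14 and 0.193 to 0.617 for the other pairs.

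Cyp4f15, Cyp4f14 and Cyp2j9 lie in gene clusters whose other genes were measured in the same cells. On the mm10 assembly Cyp4f15 occupies chr17:32685627-32703352 on the plus strand and Cyp4f14 chr17:32905070-32917342 on the minus strand, within a run of 8 Cyp4f genes that spans 495 kb. Cyp2j9 lies at chr4:96568429-96591578, minus strand, within 8 Cyp2j genes over 637 kb. Cyp2d22 is at chr15:82370527-82380260 and Cyp7b1 at chr3:18071950-18243338, both on the minus strand. Of the 5 genes only Cyp7b1 overlaps another annotated gene, the small nuclear RNA gene Gm23686 on its own strand. Of the 98-base words in the last 500 bases of their transcripts, none recurred in a transcript of another gene, except for 9 of 1580 words of Cyp2d22, shared with Cyp2d26, Cyp2d9 and Cyp2d41-ps.

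In the Cyp4f cluster, Cyp4f37 and Cyp4f40, next to Cyp4f15, and Cyp4f39, at the far end, had 0 UMIs in all astroglia. Cyp4f13, whose end lies 7.35 kb beyond Cyp4f14, had 28.6 and 14.2 CPM in postnatal and 74.7 and 67.7 CPM in 3m astroglia. In 3m oligodendrocytes Cyp4f13 had 17.4 and 21.1 CPM. Cyp4f16 had 13.5 and 9.69 against 12.8 and 7.27 CPM in astroglia, and its ages overlapped.

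In the Cyp2j cluster, genes were high in different glia, though the neighbours Cyp2j6 and Cyp2j9 were both high in 3m astroglia and in precursors. Cyp2j6, 14.8 kb from Cyp2j9, had 61.4 and 32.0 CPM in postnatal and 144 and 156 CPM in 3m astroglia, and 143 and 191 CPM in precursors of replicate 1 at the same ages. Cyp2j12 had 123 and 112 CPM in 3m oligodendrocytes but 2 and 0 UMIs in 3m astroglia and none in postnatal astroglia. In the class fit Cyp2j12 was lower in astroglia by a log2 fold change of -7.97 (SE 0.355, adjusted p = 2.12e-16, edgeR quasi-likelihood test with Benjamini-Hochberg adjustment), and Cyp2j6 was higher by 1.95 (SE 0.129, adjusted p = 4.3e-13, same test). The remaining Cyp2j genes had at most 9 UMIs in the astroglia of any library.

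**Figure D4:**
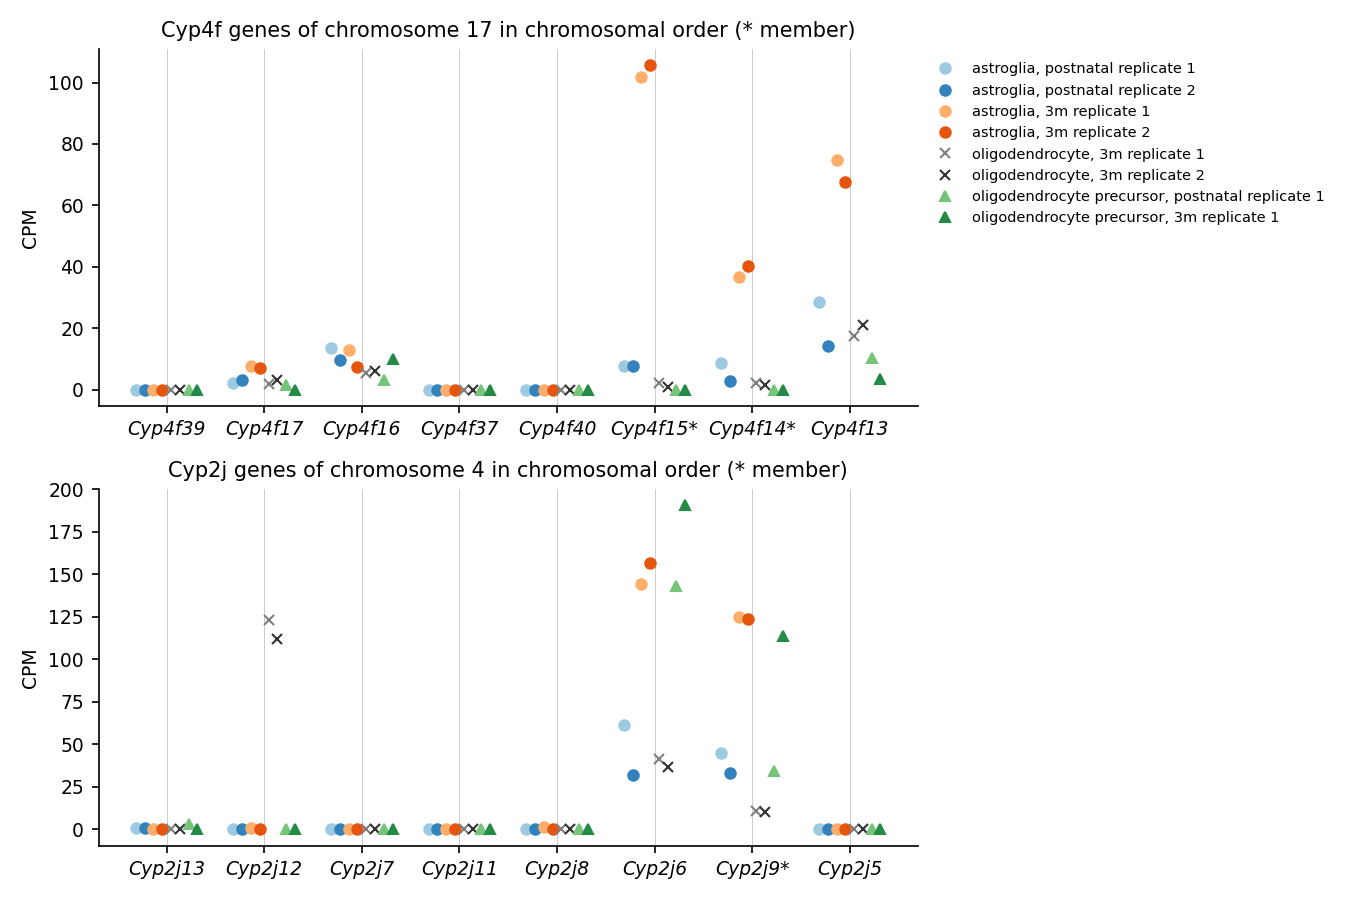
CPM (y axis) of the Cyp4f genes of chromosome 17 and the Cyp2j genes of chromosome 4, in chromosomal order and not to scale (x axis), in astroglia (circles), 3m oligodendrocytes (crosses) and oligodendrocyte precursors (triangles). Cyp4f15, Cyp4f14 and Cyp4f13 are high in 3m astroglia, Cyp2j6 and Cyp2j9 in astroglia and precursors, and Cyp2j12 in oligodendrocytes.

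Promoter sequences (250 bases before to 50 after the start, RefSeq, GRCm38.p6) were listed for 3 of the members, namely Cyp4f15, Cyp4f14 and Cyp2j9. They are shown with those of Cyp2j6 and Cyp2j12, which belong to the same cluster as Cyp2j9. Of these, Cyp2j12 was high in another cell class than Cyp2j6 and Cyp2j9. Capitals mark CCAAT on either strand (ATTGG on the strand printed), a box bound by the factor NF-Y, and for Cyp4f14 the most upstream of 4 listed starts is printed.
Cyp4f15 (chr17:32685409-32685708, plus strand): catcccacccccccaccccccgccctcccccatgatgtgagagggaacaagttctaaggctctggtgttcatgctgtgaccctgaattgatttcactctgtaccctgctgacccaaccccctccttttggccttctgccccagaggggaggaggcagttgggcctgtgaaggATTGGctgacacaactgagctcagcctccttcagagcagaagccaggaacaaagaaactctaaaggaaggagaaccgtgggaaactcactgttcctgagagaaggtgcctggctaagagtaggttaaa
Cyp4f14 (chr17:32917307-32917606, minus strand): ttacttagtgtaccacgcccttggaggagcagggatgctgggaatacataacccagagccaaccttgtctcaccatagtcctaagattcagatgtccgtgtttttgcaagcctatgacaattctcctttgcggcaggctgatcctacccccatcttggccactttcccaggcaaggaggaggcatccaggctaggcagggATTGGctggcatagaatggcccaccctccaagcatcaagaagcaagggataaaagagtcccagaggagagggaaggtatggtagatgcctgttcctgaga
Cyp2j9 (chr4:96591436-96591735, minus strand): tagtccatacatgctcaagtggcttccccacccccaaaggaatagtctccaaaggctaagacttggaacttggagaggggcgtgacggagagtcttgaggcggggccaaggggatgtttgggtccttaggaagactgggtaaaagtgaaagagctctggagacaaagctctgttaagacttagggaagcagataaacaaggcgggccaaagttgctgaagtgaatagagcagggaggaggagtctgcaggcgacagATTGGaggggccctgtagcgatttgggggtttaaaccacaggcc
Cyp2j6 (chr4:96553602-96553901, minus strand): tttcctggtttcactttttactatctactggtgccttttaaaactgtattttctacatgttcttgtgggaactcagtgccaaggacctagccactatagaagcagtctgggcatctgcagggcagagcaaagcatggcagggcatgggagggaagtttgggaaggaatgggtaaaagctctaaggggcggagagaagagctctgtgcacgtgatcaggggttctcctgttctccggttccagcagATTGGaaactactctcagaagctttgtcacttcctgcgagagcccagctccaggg
Cyp2j12 (chr4:96141103-96141402, minus strand): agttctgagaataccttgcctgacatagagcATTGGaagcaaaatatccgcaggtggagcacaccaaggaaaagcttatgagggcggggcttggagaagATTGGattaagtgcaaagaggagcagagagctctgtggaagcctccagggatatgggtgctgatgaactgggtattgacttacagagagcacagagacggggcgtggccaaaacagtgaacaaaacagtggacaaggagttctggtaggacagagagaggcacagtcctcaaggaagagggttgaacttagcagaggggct
All 5 windows hold CCAAT or ATTGG, as do 37.4% of all 32851 promoter windows. In Cyp4f15 and Cyp4f14 the match starts 78 and 50 bases before the start, followed by the same letters ctg. Cyp2j9 and Cyp2j6 have it at base 7 after and 5 before the start. GCGTG or CACGC, the core bound by the aryl hydrocarbon receptor, is in the windows of Cyp4f14, Cyp2j9 and Cyp2j12 and in 32.4% of all windows. Neither AGGTCA, the half-site of nuclear receptors (16.3% of windows, either strand), nor TATAAA (13.6%, either strand) is in any of the 5. A match is a description of letters and not a binding site.

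Among the 99 P450 symbols, the members held a larger part of the UMIs in 3m than in postnatal astroglia, as their choice makes likely. The 99 genes summed to 346 and 219 CPM in postnatal and 945 and 957 CPM in 3m astroglia, and the 5 genes to 116 and 71.9 against 555 and 567 CPM. Their share of these UMIs was 33.5% and 32.8% in the postnatal and 58.8% and 59.2% in the 3m libraries, with little spread within an age. With Cyp51, a P450 gene whose symbol has no letter after the number, the sums were 701 and 498 against 1060 and 1063 CPM, and the share of the members was 16.6% and 14.4% against 52.4% and 53.3%. In 3m oligodendrocytes the share was 8.32% and 6.10% without Cyp51 and 6.37% and 4.71% with it. Over all kept cells, 66 of the 99 P450 genes had 0 UMIs and 16 others fewer than 50 UMIs.

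Of the other 94 P450 genes, 10 had enough counts for the test between the ages, 6 were called higher at 3m (14.5% of all genes tested were), 1 lower (11.7% of all genes) and 3 were not called, with a median log2 fold change of 1.63 against 0.0020 over all genes tested. The 6 that rose were Cyp2u1 (log2 fold change 2.23, SE 0.323), Cyp4f13 (2.05, SE 0.338), Cyp2j6 (1.98, SE 0.319), Cyp4f17 (1.71, SE 0.383), Cyp46a1 (1.66, SE 0.234) and Cyp4v3 (1.61, SE 0.222), at adjusted p from 0.00379 to 0.0156 in edgeR's quasi-likelihood test. Cyp46a1, which makes 24S-hydroxycholesterol and is best known from neurons, had 10.0 and 8.64 CPM in postnatal and 23.5 and 24.9 CPM in 3m astroglia, and 2.07 and 4.13 CPM in 3m oligodendrocytes. Cyp4v3, a fatty acid hydroxylase gene, had 12.5 and 10.6 against 27.3 and 30.2 CPM, and 0.860 and 0.918 CPM in 3m oligodendrocytes. Cyp2u1 had 10.3 and 6.42 against 26.0 and 36.3 CPM. Cyp4f17 was the least supported, with 18 UMIs in each 3m library, and it was not called without either 3m library, with DESeq2, over all kept cells or in astroglia with at most 1 oligodendrocyte UMI.

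Cyp39a1, a 24-hydroxycholesterol hydroxylase gene, fell with age in astroglia. It had 6.60 and 9.57 CPM in the postnatal libraries and 0 and 1.91 CPM at 3m (log2 fold change -2.72, SE 0.796, adjusted p = 0.0365, edgeR's quasi-likelihood test), and without 3m replicate 1 the adjusted p was 0.11. Cyp1b1 had 13.2 and 3.62 against 2.56 and 0.765 CPM and was not called (adjusted p = 0.125, same edgeR test), but it was called without postnatal replicate 2 (adjusted p = 0.00115). Cyp20a1, which had the most UMIs of the 99 symbols over all kept cells, had 68.2 and 46.5 against 62.7 and 54.7 CPM, with overlapping ages. Cyp51, the sterol demethylase of cholesterol synthesis, lay outside the 99; it is named here after its values were seen, with 355 and 279 against 114 and 106 CPM (log2 fold change -1.25, SE 0.190, adjusted p = 0.0048, same edgeR test).

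Between 3m astroglia and oligodendrocytes, 4 of 10 tested other P450 genes were called higher in astroglia and 2 lower, beside 24.1% and 16.6% of all genes. The higher ones were Cyp4v3 (log2 fold change 4.93), Cyp46a1 (3.00), Cyp2j6 and Cyp4f13 (1.91). The lower ones were Cyp2j12 and Cyp27a1, the sterol 27-hydroxylase gene, which had 2.13 and 0.765 CPM in 3m astroglia and 36.3 and 39.5 CPM in 3m oligodendrocytes (log2 fold change -4.67, SE 0.391, adjusted p = 3.28e-11, edgeR's quasi-likelihood test). Cyp27a1 had 0 UMIs in postnatal astroglia. Cyp51 did not pass the test between the classes, with 115 and 108 CPM in 3m oligodendrocytes.

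Of 16 tested genes that supply P450 enzymes with electrons and haem, 3 were called higher, 1 lower and 12 were not called, a share near the 26.2% called over all genes, with a median log2 fold change of 0.19. Por, the reductase on which the 5 enzymes depend, had 60.4 and 63.0 CPM in postnatal and 119 and 123 CPM in 3m astroglia (log2 fold change 1.25, SE 0.140, adjusted p = 0.00217, edgeR's quasi-likelihood test), and it came to 0.97, under the 2-fold limit, without TMM factors. Cyb5a, the cytochrome b5 that assists some P450 reactions, had 313 and 299 against 334 and 307 CPM, with overlapping ages (adjusted p = 0.134, same edgeR test). Cyb5r3, a reductase of cytochrome b5, fell (log2 fold change -1.90), whereas Cyb5r1 (1.90) and the haem oxygenase gene Hmox1 (1.34) rose. Hmox1 was not called by DESeq2, without TMM factors, or without postnatal replicate 2 or either 3m library, and Cyb5r1 was not called without either 3m library. Por was also higher in 3m astroglia than in 3m oligodendrocytes, which had 39.2 and 39.3 CPM.

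Among arachidonic acid and oxylipin genes, the pathway of the Cyp4f and Cyp2j enzymes, 11 of 22 tested were called higher at 3m and 2 lower, beside 14.5% and 11.7% of all genes (median log2 fold change 1.08). Of the listed epoxide hydrolases, a family that opens the epoxides made by Cyp2j enzymes, Ephx2 and Ephx1 rose. Ephx2, the soluble form, had 51.1 and 24.2 CPM in postnatal and 172 and 196 CPM in 3m astroglia (log2 fold change 2.59, SE 0.360, adjusted p = 0.00384, edgeR's quasi-likelihood test), and Ephx1, the microsomal form, had 7.58 and 8.76 against 40.1 and 47.8 CPM (2.69, SE 0.210). The acyl-CoA synthetase genes Acsl3 (log2 fold change 3.39) and Acsl6 (2.79) and the cyclooxygenase gene Ptgs1 (3.78) rose as well; Ptgs1 had 11.1 and 8.80 CPM at 3m and an adjusted p of 0.0517 without 3m replicate 1. Ptgds, the prostaglandin D2 synthase gene, was called at 4.42 from 9.78 and 9.34 against 294 and 44.0 CPM, but 3m oligodendrocytes held 14584 and 10417 CPM of it. Pla2g4a, a phospholipase that frees arachidonic acid, was too low in astroglia for the test, at most 1.52 CPM, while 3m oligodendrocytes had 53.2 and 62.0 CPM.

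Of oxysterol and cholesterol genes, the pathway of Cyp7b1, 6 of 25 tested were called higher, 2 lower and 17 were not called. Of all genes, 14.5% were called higher and 11.7% lower (median log2 fold change of the list 0.39). Lcat, which esterifies cholesterol on lipoproteins, had 26.7 and 5.96 against 221 and 213 CPM (log2 fold change 4.10, SE 0.624). Srebf1 (1.52) and the cholesterol-storing Soat1 (1.46) rose, and Hmgcs1, of cholesterol synthesis, fell (-2.0). Apoe was called higher (1.72, adjusted p = 0.0261, edgeR's quasi-likelihood test), but its adjusted p was 0.091 and 0.145 without 3m replicate 1 or 2. Abca1, a cholesterol exporter, had 195 and 168 against 149 and 159 CPM and was not called (log2 fold change 0.04 after TMM scaling). Of the genes next to Cyp7b1 in oxysterol chemistry, Ch25h, which makes its substrate 25-hydroxycholesterol, and Hsd3b7, which acts on its products, were too low for the test, with at most 0.427 and 2.99 CPM in astroglia.

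Of receptors and factors known to regulate P450 genes, 8 of 23 tested were called higher at 3m, 3 lower and 12 were not called, beside 14.5% higher and 11.7% lower of all genes (median log2 fold change 0.94). Rorb, a retinoid-related orphan receptor, had 481 and 330 against 1141 and 1051 CPM (log2 fold change 1.71, SE 0.253), and Rora, which regulates Cyp7b1 in liver, had 71.2 and 47.5 against 111 and 133 CPM (1.33, SE 0.241, not called without 3m replicate 2). The thyroid hormone receptor gene Thrb (2.88) and the circadian factors Nr1d1 (2.77) and Dbp (2.06) rose. Cebpa, a factor of liver P450 expression, was called higher (4.53) from low levels, 0.245 and 0.350 against 7.25 and 5.74 CPM, and Rxrg fell (-4.87), to 0.427 and 0 CPM at 3m, with an adjusted p of 0.0563 without 3m replicate 2. Ppara, the fatty acid receptor that drives Cyp4 genes in liver, had 7.09 and 9.69 against 13.7 and 13.4 CPM, and its log2 fold change of 0.94 was under the 2-fold limit (1.16 and called without postnatal replicate 2). Ahr had 9.54 and 2.34 against 7.25 and 8.80 CPM and was not called, except without postnatal replicate 1 (log2 fold change 2.06).

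Among steroid- and drug-handling enzymes outside the P450 family, 15 of 35 tested were called higher, 1 lower and 19 were not called, beside 14.5% higher and 11.7% lower of all genes (median log2 fold change 0.76). Aldh1a1, a retinaldehyde dehydrogenase, had 6.12 and 1.05 against 78.5 and 87.6 CPM (log2 fold change 5.08, SE 0.589), and the sulfotransferase gene Sult1a1 had 2.94 and 1.75 against 47.8 and 41.7 CPM (4.61, SE 0.300). Hsd11b1, which regenerates active glucocorticoid, had 24.0 and 6.31 against 179 and 157 CPM (3.84, SE 0.563). Fmo5 (3.15) and Hsd17b11 (2.64) rose too. Of the 43 genes called higher over the 5 lists, 4 were called lower in 3m astroglia than in 3m oligodendrocytes, namely Ptgds, Pla2g16, Npc1 and Ugt8a, and Ugt8a was 1 of the oligodendrocyte markers of the gate.

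**Figure D5:**
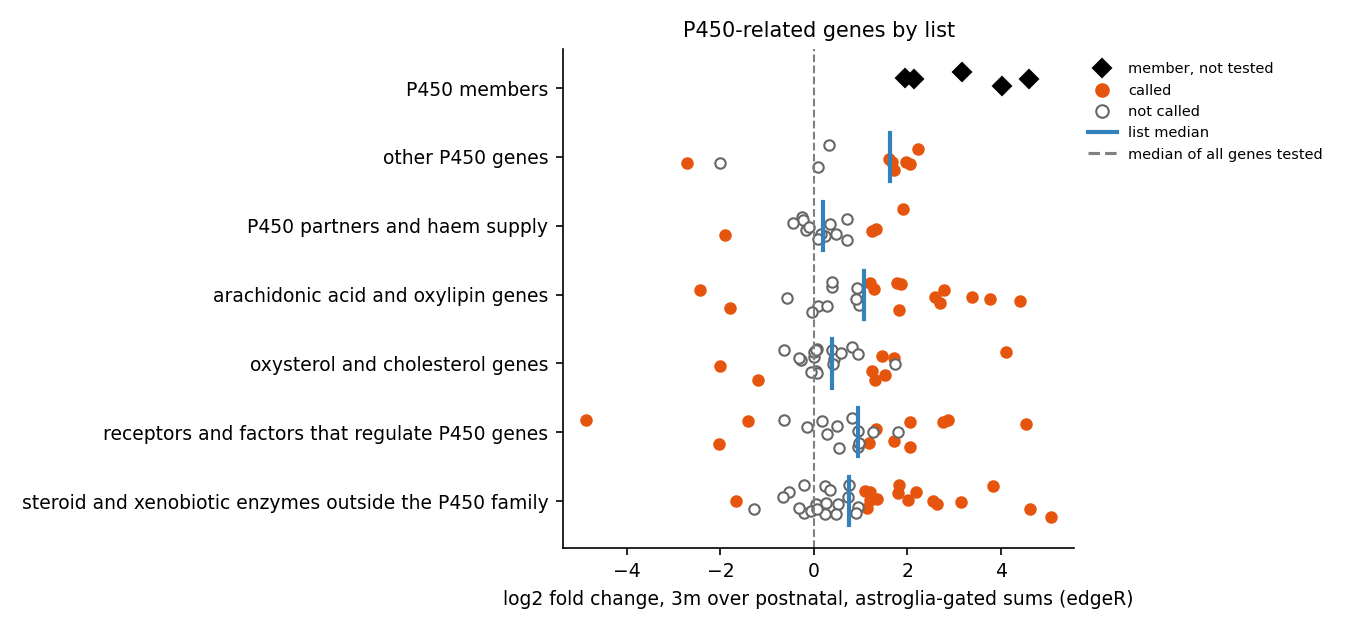
Log2 fold change, 3m over postnatal, in astroglia-gated sums (x axis) for the P450 genes and the 5 lists of related genes (y axis; vertical position within a list has no meaning). Filled circles were called, open circles were not, blue bars are list medians from 0.19 to 1.63, and the dashed line is the median of all genes tested; the 5 members (diamonds, 1.96 to 4.60) are shown without a test.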

How the data were processed

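UMI counts per gene and cell barcode were deposited by the authors without normalisation, as 1 table in which the runs of a library are merged. Per the labels, Cell Ranger, Seurat 3.1.1 and the mm10 genome were used; the study's methods name a Cell Ranger release and a later Seurat release than the labels, and which Seurat release applies was not settled. No column of the table was left unused.

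Cells were filtered as in the study, and classed by the mean log-normalised level of marker genes (at least 3 markers detected, a lead of 0.25). Doublets were not removed. Raw counts were summed per library and class (at least 20 cells) and tested in edgeR 4.0.16 (quasi-likelihood test, R 4.3.3), with TMM factors, filterByExpr and Benjamini-Hochberg adjustment. Classes were compared within the 3m libraries with library as a block. DESeq2 1.42.0 was an alternative. Both fits were first tested on simulated counts. Shares and counts carry 95% exact Clopper-Pearson and Poisson intervals, and a count of 0 the limit of 3 counts; both cover counting error only. The members, gene lists and tests were chosen with earlier results of these data known. The text names the 5 members, other P450 genes called between the ages, up to 5 called genes of each list with the largest change, 14 genes fixed in advance by role (Por to Ahr) and the 5 genes most like each member, of which 1 is not reported here. Libraries are separate preparations by their labels, and with 2 per age p-values measure the spread between these libraries. Gene positions are from GENCODE M21.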

Additional observations from a re-analysis of the deposited data

Results flagged for a closer look

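Sums of fewer than 20 cells entered no fit and are given above as values only, and 6 of them held a member at a level whose 95% Poisson interval lay above 3 UMIs, the limit that a count of 0 allows. Cyp4f15 had 109 CPM in 14 ependymal-gated cells of 3m replicate 1 and 79.8 CPM in 8 such cells of 3m replicate 2, on 28 and 11 UMIs. Their astroglia markers summed to 2221 and 2278 CPM, against 17151 and 17962 CPM in astroglia-gated cells of the same libraries. Cyp2d22 had 18.6 and 14.9 CPM in 15 and 14 endothelial-gated cells of postnatal replicates 1 and 2, on 13 and 12 UMIs. It also had 34.9 and 31.2 CPM in 7 and 9 erythroid-gated cells of the same libraries, on 18 UMIs each. These erythroid-gated cells held 54581 and 64812 median UMIs, and their endothelial markers summed to 7477 and 6676 CPM, beside 7232 and 6773 CPM in the postnatal endothelial-gated cells; whether they were doublets was not tested.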

How the results depend on the processing

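The 5 members kept a higher 3m level under all 14 alternatives of the fit between the ages. With 1 library left out, the calls between the ages ranged from 1701 to 3855 of all genes (3100 with all libraries; 1885 without 3m replicate 1 and 1701 without 3m replicate 2), from 1021 to 2023 higher and 680 to 1832 lower; among other P450 genes 0 to 2 were lower, and among the 5 lists 4 to 9 were lower. The lower other P450 genes numbered 2 without the low-count filter, 2 with the replicate block and 0 over all filtered cells, and 2186 genes were lower without TMM factors. The labels state no pairing of same-numbered libraries. However, both replicate 1 libraries have 4 runs and both replicate 2 libraries have 2, and the latter share 95 barcodes. Deviations of same-numbered libraries correlated at 0.121 over 10325 genes. The block gave 3209 calls, 1747 higher and 1462 lower, with Cyp1b1 called lower (-2.04) and Apoe no longer called (adjusted p = 0.0886, edgeR's quasi-likelihood test). The points gained at 3m in the share of astroglia with a UMI were 15.1, 6.81, 28.5, 13.9 and 16.3 for Cyp4f15, Cyp4f14, Cyp2d22, Cyp2j9 and Cyp7b1 at 2000 UMIs. Unthinned they were 37.5, 18.7, 52.0, 20.4 and 26.3, and at 5000 UMIs 36.6, 16.9, 51.7, 22.6 and 31.3. Over all filtered cells, whose mix of classes differs with age, Hmox1 turned to -0.73. Of the values of other named genes under alternatives, 692 kept their side of the threshold, 32 lost their call and 5 gained one. A change of sign between uncalled values was counted as kept. Of the lost calls, 13 were over all filtered cells, those of Cyp2j6, Cyp46a1, Cyp4v3 and Por among them. The 2 class-fit alternatives chosen after seeing the data (a wider gate margin, no shared barcodes) moved no count by over 1.5 times. With 2 libraries per age, levels that rest on a few UMIs in a class are known only within wide intervals.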
